A study of Rattus norvegicus with 25 samples.

Results

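The comparison of NMBA with Control set 5 rats given N-nitrosomethylbenzylamine (NMBA) against 5 rats that were not given it, 10 arrays of the 25 in the series. Members were chosen by title alone: the arrays titled NMBA rat 1 to rat 5 and Control rat 1 to rat 5. All 10 animals were male F344 rats on a normal diet, the tissue was labelled esophageal epithelium, and each rat gave 1 array of total RNA labelled with the dye Cy3. The NMBA rats were labelled as NMBA treatment plus normal diet and the Control rats as having the normal diet without it. The sources used here do not give dose, route, duration of exposure, age or whether tumours were present. The other 15 arrays, of rats given NMBA together with a tocopherol, entered the fit for the estimate of spread and are not described.

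NMBA is a nitrosamine that is activated by cytochrome P450 enzymes in the rat esophagus to a species that methylates DNA, including guanine at its O6 position, and it is a standard agent for inducing squamous tumours of this organ. Methylated guanine is reversed by the protein that Mgmt encodes, and unrepaired damage is read by mismatch repair and by p53, which turns on cell cycle inhibitors such as Cdkn1a. Interferons, released by infected or damaged tissue and by activated T cells, turn on antiviral genes, antigen processing genes and the chemokines Cxcl9, Cxcl10 and Cxcl11, which call in T cells that carry the receptor Cxcr3. The question the comparison addresses is which genes differed between samples of rats given the carcinogen and samples of rats not given it.

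The level of a gene is given as log2 of the scanner signal relative to the 75th percentile of the same array, so that 0 is the brightness of that percentile and 1 unit is a doubling. Levels of different probes are not comparable with each other. Each array had 58717 spots outside controls, of which 74.4% to 76.1% were well above background in Control rats and 70.6% to 75% in NMBA rats, and NMBA rats 2, 3 and 4 were below every Control rat. No spot was saturated (0 on these arrays). The SD over genes of the log2 difference between 2 arrays had a median of 0.645 over the 20 pairs of rats within a group and 0.691 over the 25 pairs of 1 NMBA and 1 Control rat. The squamous keratin genes Krt4, Krt13 and Krt5 were above background on all 10 arrays. The tissue also held muscle: 22 genes of smooth and skeletal muscle were measured, and their summed signal, in units of the 75th percentile, ran from 128 to 308 in Control rats and from 172 to 266 in NMBA rats.

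The arrays sat on 3 slides. Slide 3 held Control rats 2 to 5, all in array row 1, and NMBA rats 1 to 4, all in array row 2, so that on this slide group and array row cannot be told apart. Control rat 1 was on slide 2 in row 2 and NMBA rat 5 on slide 4 in row 1, so rows ran the other way in this pair. Nothing in the labels says more of how the rats were housed or processed. Differences are NMBA minus Control, given as log2 ± the moderated standard error of limma with n = 5 rats per group, and a gene passed the test at an adjusted p under 0.05 (limma, two-sided, Benjamini-Hochberg over 12343 genes).

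Of 12343 genes tested, 161 were higher (1.30%) and 30 lower (0.243%) in NMBA rats, 191 in all (1.55%), and 117 of these differed by at least 2-fold. The genes that rose were led by the hormone gene Gip, the chemokines Cxcl10 and Cxcl9, the T cell gene Cd27 and the keratin gene Krt82. Those that fell furthest were Zbtb16, Phactr3, Grik2 and Gria2. The 5 NMBA rats lay wholly on 1 side of the 5 Control rats in 155 of the 191 genes, and in 494 of all genes tested (4.0%). On all 10 arrays 145 of the 191 were above background, 10 were above it on no Control array and 5 on no NMBA array. The median difference over all genes tested was 0.05, and 57.4% of genes were above 0. The unadjusted p of limma was under 0.05 in 1580 of the 12343 genes. Counts for gene lists below are to be read beside these shares.

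With slide as a block in the fit 62 genes passed, 61 of them among the 191. That block leaves each gene's difference as it is on slide 3 and changes only the spread, which is taken from all 25 arrays. NMBA rat 5 and Control rat 1 thus add nothing to the difference, and group and array row cannot be told apart in that difference. With array row as a block 166 passed, 141 of them among the 191. With slide and row together 8 passed. Leaving out Control rat 1 gave 115 genes, Control rat 4 gave 120, NMBA rat 1 gave 115, NMBA rat 2 gave 126, NMBA rat 4 gave 297 and NMBA rat 5 gave 96, and 80 of the 191 genes passed whichever rat was left out.

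With normexp background correction, which models the background in place of subtracting it, 25 of the 89 named genes that passed moved by over 1.5 times in fold, all 25 to a smaller difference of the same sign. For each of them described here the normexp value is given with its result. A fold given below as "at least" is a bound for the background-subtracted signal only, and the normexp difference can lie below it.

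**Figure D1:**
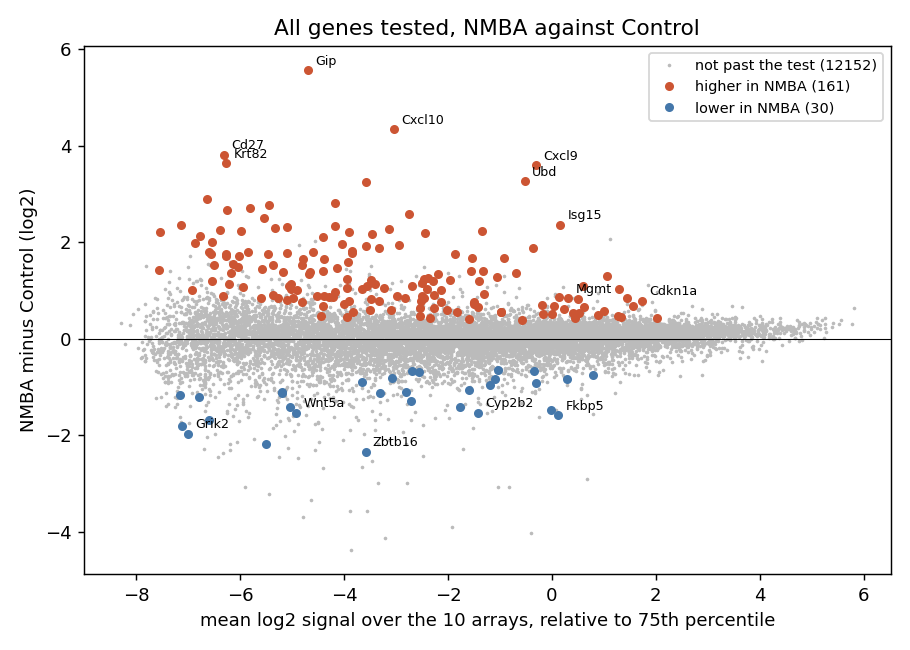
Each point is 1 of the genes tested, with its mean log2 signal over the 10 arrays relative to the 75th percentile (horizontal) and its log2 difference, NMBA minus Control (vertical); the 161 genes that passed the test above 0 are orange and the 30 below 0 are blue. Rises reach 5.57 for Gip, and the points past -3 are grey because the spread between rats in those genes was too wide for them to pass.

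The interferon-induced chemokines that bind Cxcr3 were raised together. Cxcl10 stood at -5.56, -5.54, -4.78, -4.82 and -5.32 in Control rats 1 to 5 and at -0.04, -0.57, -1.16, -1.89 and -0.63 in NMBA rats 1 to 5. Every NMBA rat was thus far above every Control rat, with NMBA rat 4 the lowest of its group, and the difference was 4.35 ± 0.53, or 20.4-fold (adjusted p = 4.39e-05). Cxcl9 stood at -2.06, -2.75, -2.32, -1.65 and -1.78 in Control and at 2.09, 1.39, 1.53, 0.37 and 2.05 in NMBA rats. NMBA rat 4 was again lowest and the groups did not overlap (3.60 ± 0.51, 12.1-fold, adjusted p = 0.000366). Cxcl11 stood at -6.02, -4.97, -4.87, -5.09 and -5.08 in Control and at -1.26, -2.09, -2.16, -2.94 and -1.34 in NMBA rats, a 9.5-fold difference with the same rat lowest (3.25 ± 0.43, adjusted p = 0.000139, and 2.63 with normexp).

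Their receptor Cxcr3, carried by activated T and NK cells, stood at -4.70, -4.48, -3.58, -4.39 and -4.20 in Control and at -2.09, -2.44, -1.61, -3.70 and -2.09 in NMBA rats. Here NMBA rat 4 fell within the Control range, and the rise was 1.89 ± 0.42 (3.7-fold, adjusted p = 0.0191). On slide 3 alone the differences were 4.20 for Cxcl10, 3.47 for Cxcl9, 2.89 for Cxcl11 and 1.70 for Cxcr3, and all but Cxcr3 (adjusted p = 0.154) passed there. Nor did Cxcr3 pass with slide as a block (adjusted p = 0.0952) or with array row as a block (adjusted p = 0.0595). Pf4, a platelet chemokine that also binds this receptor, stood at -0.57 ± 0.39 and did not pass (adjusted p = 0.565).

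The start sites of Cxcl9, Cxcl10 and Cxcl11 lie on 1 strand within 33438 bases of chromosome 14 in the RefSeq annotation of GRCr8, at 16007166, 15989066 and 15973728. The 250 bases before each start are shown because these genes rose together. Capitals mark matches on either strand to 2 motifs, an interferon-stimulated response element written GAAANNGAAA and an interferon-gamma-activated site written TTCNNNGAA, and a match to the one may share bases with a match to the other.
Cxcl9, chr14:16006916-16007165, plus strand: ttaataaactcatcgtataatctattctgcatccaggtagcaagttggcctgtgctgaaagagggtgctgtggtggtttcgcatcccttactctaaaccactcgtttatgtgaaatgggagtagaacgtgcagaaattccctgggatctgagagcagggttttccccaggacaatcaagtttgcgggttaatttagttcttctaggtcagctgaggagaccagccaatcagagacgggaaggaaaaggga
Cxcl10, chr14:15988816-15989065, plus strand: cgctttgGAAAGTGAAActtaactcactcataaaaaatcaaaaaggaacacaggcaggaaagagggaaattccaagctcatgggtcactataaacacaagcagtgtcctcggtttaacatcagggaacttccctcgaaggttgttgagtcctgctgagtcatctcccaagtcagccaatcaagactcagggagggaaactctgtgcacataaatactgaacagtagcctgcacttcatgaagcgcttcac
Cxcl11, chr14:15973478-15973727, plus strand: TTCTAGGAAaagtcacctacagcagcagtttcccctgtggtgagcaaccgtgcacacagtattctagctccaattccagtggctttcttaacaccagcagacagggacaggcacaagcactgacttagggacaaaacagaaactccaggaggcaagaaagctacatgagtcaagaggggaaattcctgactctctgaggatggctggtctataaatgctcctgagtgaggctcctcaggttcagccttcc
Cxcl10 held 1 match to the response element, Cxcl11 held 1 match to the activated site, and the stretch shown for Cxcl9 held neither, its match to the activated site lying 32 to 40 bases past the start.

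Matches were counted over the 300 bases RefSeq gives around a start (250 before and 50 after), at each gene's first listed start. The response element occurred in 12 of the 128 genes called higher that have an entry (9.38%) and in 292 of 10059 genes tested (2.90%). In the 22 genes called lower with an entry it occurred in 0, and in the interferon list described next it occurred in 19 of 29. The activated site occurred in 15 of the 128 (11.7%) and in 703 of 10059 (6.99%). Short stretches around the response element are shown for 5 further genes that rose, 4 of them interferon or antigen processing genes; sequences are on the strand of the gene, and capitals mark the element, which in Irf7 and Tap1 reads on the opposite strand.
Irf7, chr1:205800058-205800117, minus strand: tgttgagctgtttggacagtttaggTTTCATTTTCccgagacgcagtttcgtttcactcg
Oas1a, chr12:41330400-41330459, plus strand: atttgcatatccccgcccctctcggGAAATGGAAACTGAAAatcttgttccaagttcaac
Irgm, chr10:33742579-33742637, minus strand: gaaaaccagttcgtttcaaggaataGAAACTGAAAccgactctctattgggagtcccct
Tap1, chr20:4668630-4668689, minus strand: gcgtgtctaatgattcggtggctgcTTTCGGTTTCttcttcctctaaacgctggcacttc
Fcgr3a, chr13:85782506-85782565, plus strand: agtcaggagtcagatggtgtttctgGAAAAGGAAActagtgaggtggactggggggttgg
These are matches of letters in a window, and no binding was measured here.

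**Figure D2:**
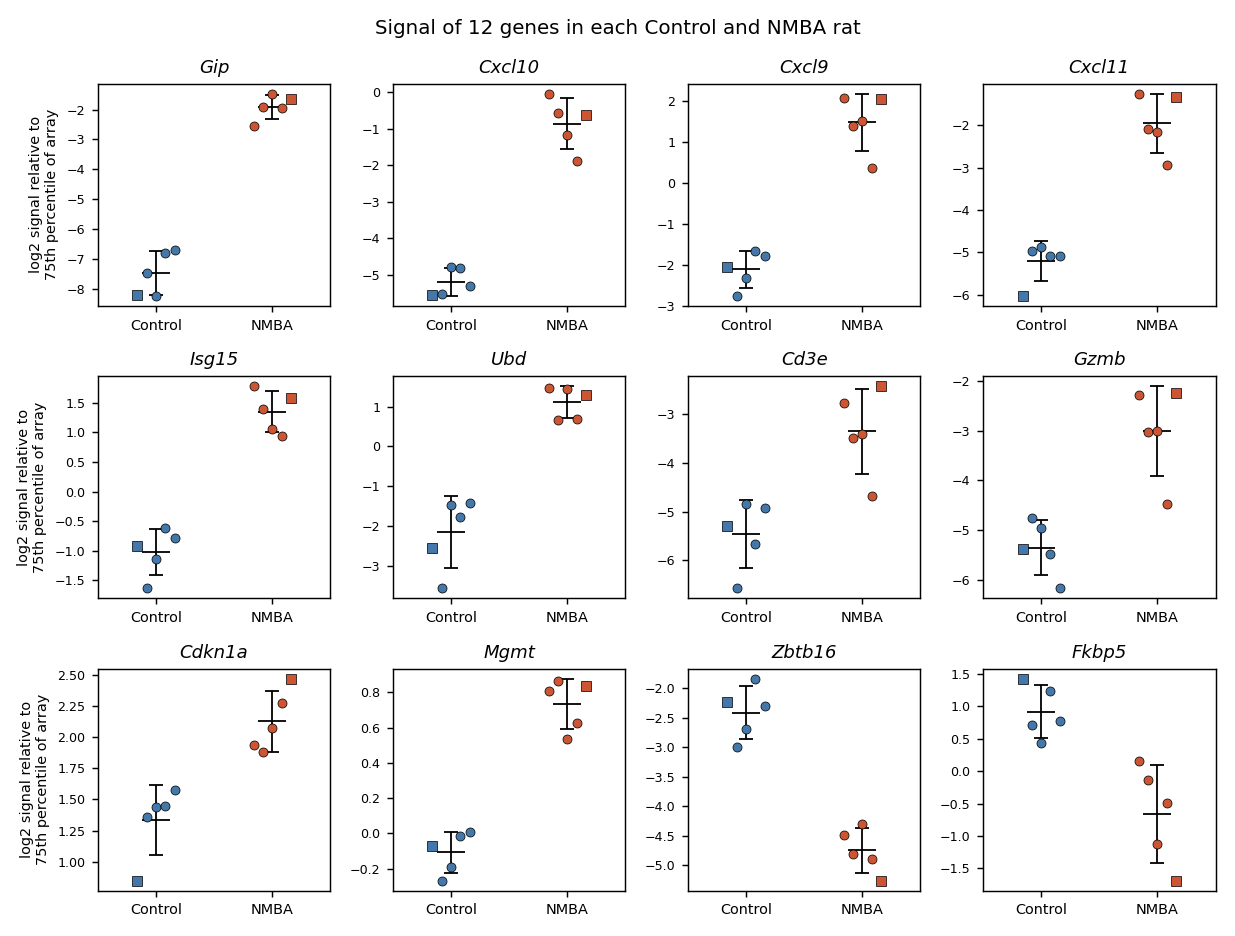
Log2 signal of 12 genes in each rat, relative to the 75th percentile of its array; points are rats (Control blue, NMBA orange, squares the pair of rats off slide 3), bars are the group mean ± SD, and each panel has its own axis. The groups do not overlap in any of the 12 genes. NMBA rat 4 is the lowest orange point for Cxcl9, Cxcl10, Cxcl11, Cd3e and Gzmb.

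Interferon-induced genes were higher in NMBA rats as a group, although only 6 of the 37 measured passed singly (1.55% of all genes did). Their median difference was 0.63, beside 0.05 over all genes, and 36 of the 37 were above 0. In 11 of the 37 the groups did not overlap, beside 4.0% of all genes tested. Isg15, a ubiquitin-like protein attached to other proteins in the antiviral response, stood at -0.92, -1.63, -1.14, -0.61 and -0.79 in Control and at 1.78, 1.40, 1.05, 0.95 and 1.57 in NMBA rats. All NMBA rats were above all Control rats (2.37 ± 0.30, 5.17-fold, adjusted p = 7.82e-05). Oas1a, an oligoadenylate synthetase that starts the decay of viral RNA, stood at -3.42, -3.32, -3.80, -3.14 and -3.99 in Control and at -1.07, -1.77, -0.90, -1.62 and -1.32 in NMBA rats. These groups were also apart (2.20 ± 0.37, 4.6-fold, adjusted p = 0.00211).

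The transcription factor Irf7, which amplifies the type I interferon response, rose 2.45-fold (1.29 ± 0.20). The immune GTPase gene Irgm (0.85 ± 0.17) and the RNA sensor Dhx58 (1.05 ± 0.21) also rose. Ifi27, a mitochondrial interferon-induced gene, stood at 0.38 ± 0.21 and did not pass (adjusted p = 0.455). All 6 called members passed with slide as a block, with array row as a block and without any 1 rat. The list's median was 0.66 on slide 3, where Isg15, Oas1a and Irf7 passed and the other called members did not.

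Ubd, a ubiquitin-like gene induced by interferon gamma and outside the list, stood at -2.56, -3.57, -1.47, -1.76 and -1.43 in Control and at 1.47, 0.66, 1.45, 0.69 and 1.28 in NMBA rats. The lowest NMBA rat was above the highest Control rat by more than 2 units in log2, and the difference was 9.64-fold (3.27 ± 0.49, adjusted p = 0.000589). A few antigen processing genes also rose. Of 16 genes for class I presentation, 3 rose (1.30% of all genes did) and none fell, with a median difference of 0.43. They were Tap1, which moves peptides into the endoplasmic reticulum (1.17 ± 0.21, adjusted p = 0.00482), and the immunoproteasome subunits Psmb8 (1.37 ± 0.29, adjusted p = 0.0135) and Psmb9 (1.31 ± 0.28, adjusted p = 0.0162). Their start sites are neighbours on chromosome 20 in GRCr8, with 457 bases between those of Tap1 and Psmb9 and 11512 between those of Tap1 and Psmb8. B2m, the light chain of class I molecules, stood at 0.42 ± 0.18 and did not pass (adjusted p = 0.336). With slide as a block Psmb9 did not pass (adjusted p = 0.102), and with array row as a block Psmb8 did not (adjusted p = 0.0558).

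All 10 measured genes of class II presentation were above 0, with a median of 0.69, and 1 passed (1.55% of all genes did). This was Ciita, the master activator of class II genes, at -3.02, -3.25, -2.66, -3.13 and -2.38 in Control and -1.13, -1.82, -1.59, -2.43 and -1.45 in NMBA rats. NMBA rat 4 overlapped the Control range, and the rise was 2.3-fold (1.20 ± 0.24, adjusted p = 0.00859), not past the test with slide as a block (adjusted p = 0.0864). The invariant chain Cd74 (0.68 ± 0.18, adjusted p = 0.0599) and the class II chain RT1-Db1 (0.62 ± 0.16, adjusted p = 0.0582) did not overlap between the groups and missed the threshold.

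**Figure D3:**
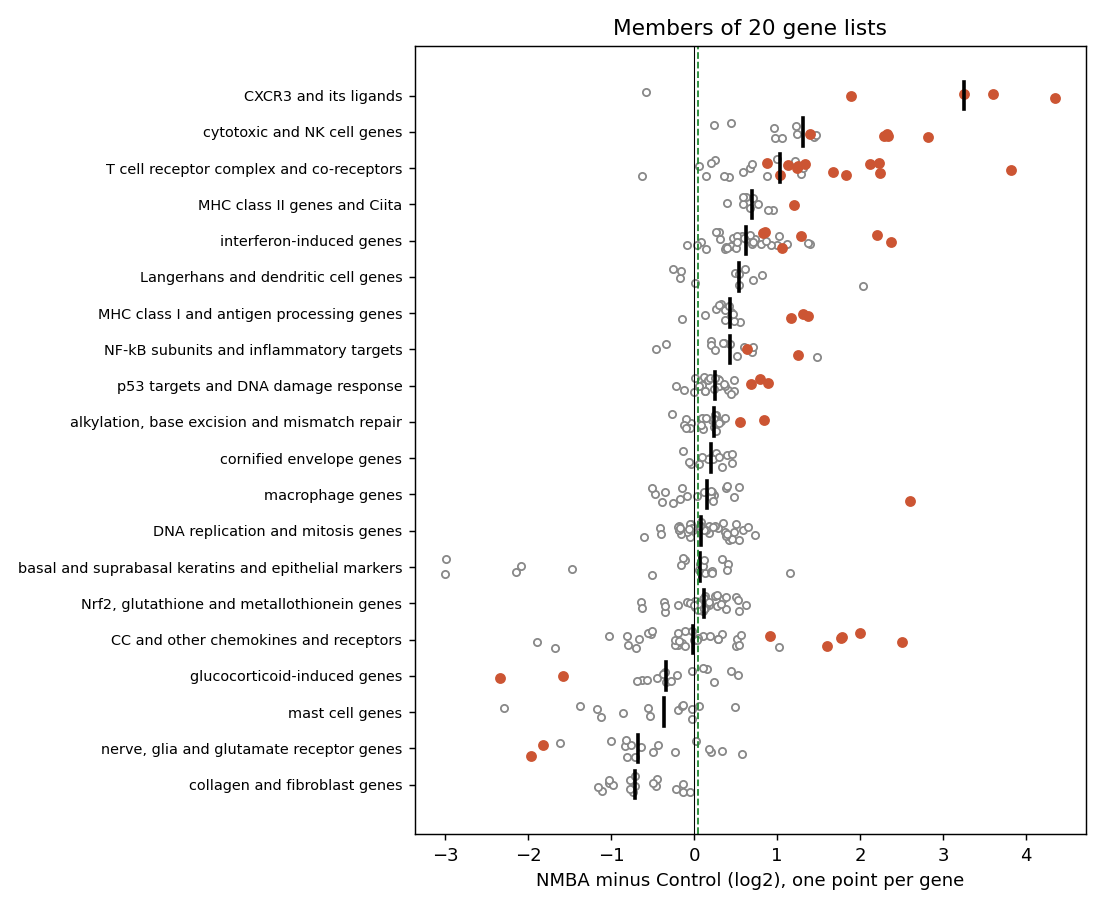
Each point is a measured member of 1 of 20 gene lists at its log2 difference, NMBA minus Control; filled points passed the test, open points did not, the black bar is the list's median and the dashed line the median of all genes tested (0.05). Medians run from 3.25 for CXCR3 and its ligands to -0.71 for collagen and fibroblast genes, where 0 members passed.

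T cell genes were the list with the most called members. Of 27 measured genes of the T cell receptor complex and its co-receptors, 12 rose (1.30% of all genes did) and 0 fell, and the median difference was 1.04. In a bulk sample more cells of a type and more RNA per cell cannot be told apart. The signal chains of the receptor complex rose together: Cd3d by 2.24 ± 0.45, Cd3e by 2.11 ± 0.43, Cd3g by 1.67 ± 0.38 and Cd247 by 1.82 ± 0.37. Cd3e stood at -5.30, -6.58, -4.84, -5.67 and -4.93 in Control and at -2.76, -3.48, -3.41, -4.68 and -2.42 in NMBA rats (4.33-fold, adjusted p = 0.00995, and 1.5 in log2 with normexp). NMBA rat 4 was only just above the highest Control rat, and in Cd3d (-1.91 against -1.52 in Control rat 3) it was below.

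Cd27, a co-stimulatory receptor, was above background on no Control array and on 4 NMBA arrays, and was at least 9.27-fold higher (3.82 ± 0.72, adjusted p = 0.00525, and 1.70 with normexp). Sh2d1a, the adaptor of T and NK cell receptors of the SLAM family, was above background on no Control array and all 5 NMBA arrays, and was at least 5.44-fold higher (2.91 ± 0.54, adjusted p = 0.00491, and 1.18 with normexp). The co-receptor chain Cd8b rose by 2.23 ± 0.42 (4.68-fold, adjusted p = 0.00511), was above background on 1 Control array and all 5 NMBA arrays, and stood at 0.96 with normexp background correction. Its partner chain Cd8a, above background on all 10 arrays, stood at 0.25 ± 0.41. Cd4 stood at 0.15 ± 0.40 and was above background on 4 Control and 2 NMBA arrays only. Neither passed the test (Cd8a and Cd4 were chosen after their values were seen). Also raised were the kinase Lck (1.23 ± 0.27), the interleukin receptor chain Il2rb (1.25 ± 0.26), the factor Gata3 (1.34 ± 0.22), the adhesion receptor Cd2 (1.04 ± 0.22), and the inhibitory receptors Lag3 (1.13 ± 0.29) and Cd5 (0.87 ± 0.22). Cd6 stood at 0.42 ± 0.18 and did not pass.

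The summed signal of the 27 T cell genes ran from 1.8 to 2.94 in Control rats and from 2.49 to 7.02 in NMBA rats, in units of the 75th percentile. The median deviation of the 27 from the Control mean was 1.16, 0.94, 1.17, 0.18 and 1.56 in NMBA rats 1 to 5, against -0.30 to 0.37 in Control rats, so that rat 4 alone lay inside the Control range. Of the 12 called genes, 4 passed with slide as a block (Cd2, Cd8b, Cd27 and Gata3), 9 with array row as a block and 7 without any 1 rat. On slide 3 alone none of the 12 passed, the lowest adjusted p being that of Cd27 (0.0868, limma). The median of the 27 genes was 0.81 on slide 3 and 1.79 in the pair of rats off that slide.

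Genes of cytotoxic and natural killer cells moved in the same direction: 5 of 14 rose (1.30% of all genes did), 0 fell, all 14 were above 0 and the median was 1.32. Gzmb, the granzyme that triggers death of target cells, stood at -5.39, -4.76, -4.95, -5.48 and -6.17 in Control and at -2.29, -3.02, -3.01, -4.48 and -2.24 in NMBA rats. The groups did not overlap, with NMBA rat 4 nearest to Control (2.34 ± 0.45, 5.06-fold, adjusted p = 0.00658). The granzymes Gzmk (2.32 ± 0.56) and Gzmm (2.28 ± 0.40), the lymphocyte protease Ctsw (2.82 ± 0.42) and the receptor Klrb1a (1.39 ± 0.24) also rose. With normexp Gzmk stood at 1.46 and Ctsw at 2.19. Cst7, a cystatin of these cells, stood at 1.06 ± 0.34 and did not pass (adjusted p = 0.148). With slide as a block Gzmb (adjusted p = 0.0671) and Gzmk (adjusted p = 0.182) did not pass, and Gzmk did not pass with array row as a block either (adjusted p = 0.0926). On slide 3 alone none of the 5 passed, the lowest adjusted p being that of Ctsw (0.0641, limma).

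**Figure D4:**
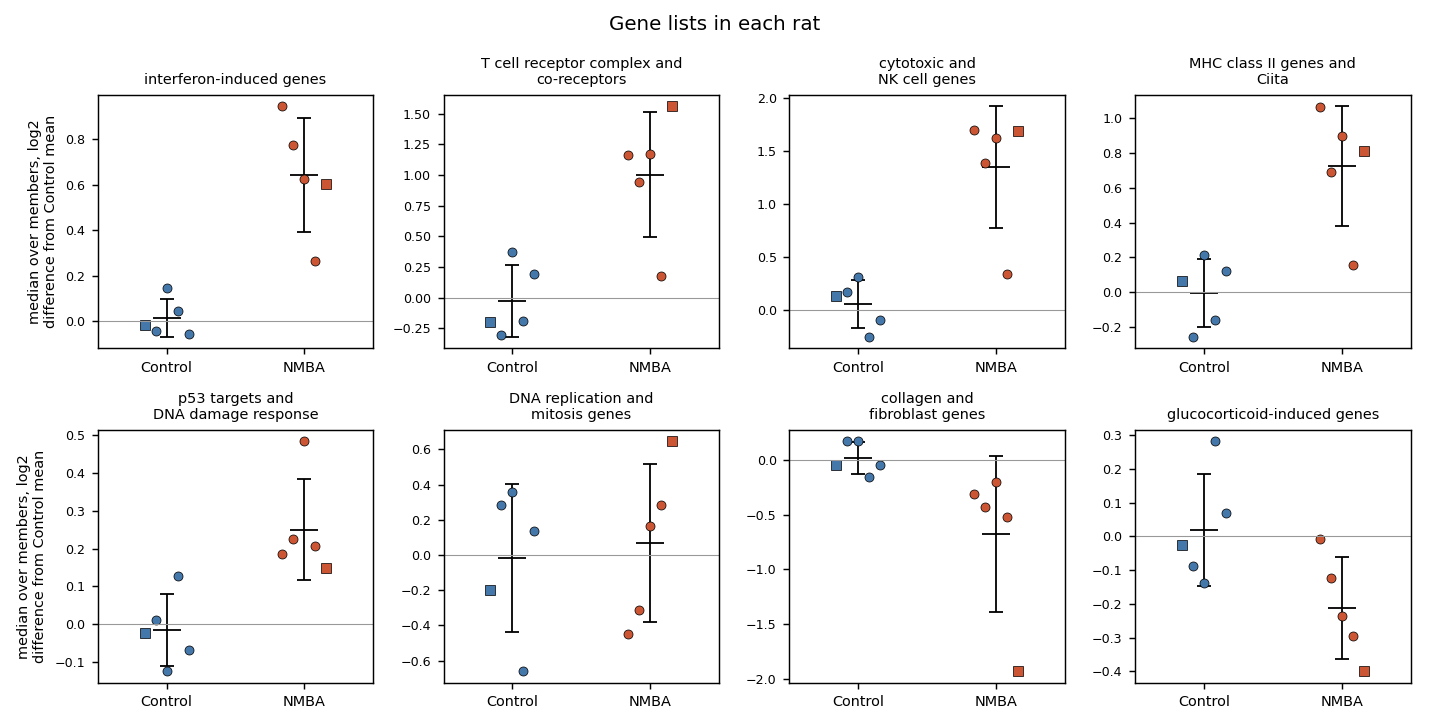
For 8 gene lists, the median over measured members of each rat's log2 difference from the mean of the 5 Control rats; points are rats (Control blue, NMBA orange, squares the pair of rats off slide 3) and bars are the group mean ± SD. NMBA rat 4 is the lowest NMBA rat in the lists of interferon, T cell, cytotoxic and class II genes, and NMBA rat 5 stands at -1.93 in the collagen list.

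Among 38 CC and other chemokines and receptors, 6 rose (1.30% of all genes did) and 0 fell, while the median of the list was -0.01 and 20 members were below 0. Ccl22, made by dendritic cells and macrophages, stood at -4.45, -5.70, -4.68, -4.41 and -4.38 in Control and at -3.41, -3.37, -2.48, -3.13 and -3.24 in NMBA rats. The groups were apart without overlap (1.60 ± 0.23, 3.03-fold, adjusted p = 0.000357). The lymphocyte chemokines Ccl5 (1.77 ± 0.42), Ccl4 (1.78 ± 0.40), Xcl1 (0.92 ± 0.19) and Ccl1 (2.0 ± 0.47) and the monocyte chemokine Ccl12 (2.50 ± 0.61) also rose. For Xcl1 the 2 probes differed in size, from 0.92 to 1.86. With normexp Ccl4 stood at 1.03, Ccl1 at 0.79 and Ccl12 at 1.29, and Ccl1 was above background on 1 Control array. Ccl22 and Ccl1 also passed with slide as a block, and with array row as a block Ccl22 and Xcl1 did. On slide 3 alone none of the 6 passed, the lowest adjusted p being that of Ccl1 (0.0800, limma).

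Other leukocyte lists held few or no calls. Of 20 macrophage genes 1 rose (1.30% of all genes did), the immunoglobulin receptor gene Fcgr3a, which NK cells also carry, at -4.21, -4.78, -3.48, -4.08 and -3.68 in Control and -0.91, -1.95, -1.32, -2.62 and -0.47 in NMBA rats. These groups did not overlap (2.60 ± 0.44, 6.04-fold, adjusted p = 0.00214). The complement gene C1qa, made by macrophages, stood at 0.22 ± 0.28 and did not pass, and the macrophage list had a median of 0.16. Its median deviations from the Control mean were 0.53, 0.27, 0.45, -0.10 and -0.64 in NMBA rats 1 to 5. The integrin gene Itgad, in no list, rose by 2.31 ± 0.38 (4.94-fold), above background on 2 Control arrays and at 1.23 with normexp. Of 10 B cell and plasma cell genes, 11 Langerhans and dendritic cell genes, 11 neutrophil genes and 14 mast cell genes, 0 passed in limma, with medians of 0.18, 0.54, 0.06 and -0.36 and with 1, 4, 3 and 0 genes at an unadjusted p under 0.05. Mcpt8, a mast cell and basophil protease, ran from -2.38 to 2.32 in Control and from -2.95 to 0.23 in NMBA rats, a spread between rats that exceeded the difference of -1.13 ± 0.94.

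Receptors and cytokines of the interleukin and TNF families gave 3 rises among 31 genes (1.30% of all genes rose). Tnfrsf18, a co-stimulatory receptor of activated and regulatory T cells, stood at -2.81, -2.95, -2.71, -2.99 and -2.82 in Control and at -1.53, -1.80, -1.52, -1.93 and -0.81 in NMBA rats. The Control rats lay within a narrow band and every NMBA rat was above it (1.34 ± 0.19, 2.53-fold, adjusted p = 0.000314). Tnfrsf4, a related receptor, rose by 1.95 ± 0.38 and the epithelial cytokine Il18 by 0.67 ± 0.14, and with slide as a block Tnfrsf4 did not pass (adjusted p = 0.102). Tnfrsf14, a receptor in no list, rose by 2.72 ± 0.58, or 1.29 with normexp, with an adjusted p of 0.0982 with slide as a block. Of 15 NF-κB subunits and targets, the inhibitor Nfkbie (0.64 ± 0.16) and the survival gene Bcl2a1 (1.26 ± 0.29) rose, and neither passed with slide or with array row as a block (adjusted p = 0.106 and 0.117 for Nfkbie, 0.15 and 0.0542 for Bcl2a1). The subunit Rela stood at 0.43 ± 0.23 and did not pass. Ptgs2 and Nos2 were not tested, being above background on 0 and 1 of the 25 arrays, and no named probe for Nfkb1 was analysed here.

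Of 25 p53 targets, 3 rose (1.30% of all genes did) and 0 fell, with a median of 0.25. Cdkn1a, the cyclin kinase inhibitor induced by p53, stood at 0.85, 1.36, 1.44, 1.44 and 1.58 in Control and at 1.94, 1.88, 2.07, 2.27 and 2.47 in NMBA rats. The groups did not overlap (0.79 ± 0.14, 1.73-fold, adjusted p = 0.00427), and the difference was 0.58 on slide 3, where Cdkn1a did not pass (adjusted p = 0.128, limma). Its 2 probes differed in size, from 0.31 to 0.79. The antiproliferative gene Btg2 rose by 0.69 ± 0.15 (adjusted p = 0.0173) and Dglucy by 0.89 ± 0.19 (adjusted p = 0.0161), and with slide as a block these stood at adjusted p = 0.187 and 0.173. Perp, a p53 target of squamous epithelium, stood at 0.25 ± 0.23 and did not pass.

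In the list of alkylation, base excision and mismatch repair 2 of 24 genes rose (1.30% of all genes did). Mgmt, which removes methyl groups from guanine, stood at -0.07, -0.27, -0.19, -0.02 and 0.01 in Control and at 0.81, 0.86, 0.54, 0.63 and 0.84 in NMBA rats. Both groups were tight and did not overlap (0.84 ± 0.16, 1.79-fold, adjusted p = 0.00578). The difference on slide 3 was 0.83, just short of passing there (adjusted p = 0.0510, limma). Of 20 genes for double-strand break and crosslink repair, Rad51d rose by 0.55 ± 0.14 (adjusted p = 0.0472, and 0.286 with slide as a block).

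Cell cycle genes showed no common direction. Among 21 cyclins, kinases and inhibitors of entry into S phase, Ccne1 (1.20 ± 0.30), Cdkn2a (2.23 ± 0.54) and Cdkn1a rose, beside 1.30% of all genes. Ccne1, the cyclin of the G1 to S transition, stood at -2.80, -1.38, -1.51, -2.54 and -1.72 in Control and at -0.32, -0.72, -1.66, -1.05 and -0.22 in NMBA rats. NMBA rat 3 lay within the Control range (2.29-fold, adjusted p = 0.0435), and with slide as a block the adjusted p was 0.408. Cdkn2a, which encodes inhibitors of cyclin kinases and of Mdm2, stood at -4.16, -6.65, -4.80, -4.92 and -4.54 in Control and at -3.27, -2.62, -3.04, -3.21 and -1.81 in NMBA rats. The groups did not overlap (adjusted p = 0.0344, and 0.137 with slide as a block). With array row as a block neither Ccne1 (adjusted p = 0.068) nor Cdkn2a (adjusted p = 0.102) passed. The cyclin Ccnd1 stood at 0.27 ± 0.17 and did not pass. Of 39 replication and mitosis genes 0 passed (7 at an unadjusted p under 0.05, limma), 22 were above 0 and 17 below, and the proliferation marker Mki67 stood at -0.05 ± 0.32. Their median deviation from the Control mean ran from -0.66 to 0.36 in Control and from -0.45 to 0.65 in NMBA rats, so the groups overlapped throughout.

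Of 20 immediate early genes, Fosl1 and Btg2 rose, beside 1.30% of all genes. Fosl1, an AP-1 subunit, stood at -4.36, -5.69, -3.90, -4.85 and -3.91 in Control and at -2.48, -2.77, -2.86, -2.53 and -2.42 in NMBA rats. The NMBA rats lay close together and above every Control rat (1.93 ± 0.37, 3.82-fold, adjusted p = 0.00664, and 0.0599 with slide as a block). The related Jund stood at 0.19 ± 0.18 and did not pass. The matrix protease Mmp10 rose by 1.80 ± 0.31 (3.49-fold, adjusted p = 0.0029), 1 of 17 metalloproteinases and inhibitors to pass, though it was above background on 1 Control and 3 NMBA arrays only and stood at 0.56 with normexp correction. The receptor Notch1, which drives squamous differentiation, rose by 0.86 ± 0.18 (1.81-fold, adjusted p = 0.0105, and 0.0876 with slide as a block). Its 2 probes differed in size, from 0.53 to 0.86.

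No gene of the squamous epithelium's own lists passed. Of 21 keratins and epithelial markers and of 14 cornified envelope genes, 0 passed, with medians of 0.07 and 0.21 and with 5 and 2 genes at an unadjusted p under 0.05 (limma). The basal keratin Krt5 stood at 0.41 ± 0.15 (adjusted p = 0.228), and the suprabasal keratins Krt4 and Krt13 at 0.34 ± 0.15 and 0.20 ± 0.19. The envelope gene Sprr3 stood at 0.40 ± 0.27 and the adhesion gene Epcam at -0.15 ± 0.16. Larger differences with a wide spread between rats were seen in Krt19 (-2.99 ± 1.55, adjusted p = 0.428), Krt18 (-2.99 ± 1.42, adjusted p = 0.381), Krt7 (-2.14 ± 1.15, adjusted p = 0.449) and Krt8 (-2.08 ± 0.98, adjusted p = 0.373), keratins of simple epithelia chosen after their values were seen, and in the stress keratin Krt16 (1.16 ± 0.85, adjusted p = 0.601), likewise chosen. In Krt13 and Sprr3 Control rat 1 was the lowest Control rat, at 4.42 and 4.35 on an axis where the other Control rats were above 5. Upk1b, a uroplakin, stood at 1.18, -0.25, 0.99, 0.93 and 0.79 in Control and at -1.20, -0.58, -0.80, -1.08 and -0.05 in NMBA rats. Control rat 2 overlapped the NMBA rats (-1.47 ± 0.35, 2.78-fold lower, adjusted p = 0.028).

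Among 17 cytochrome P450 and aryl hydrocarbon receptor genes, Cyp2b2 fell (0.243% of all genes did) and 0 rose. It stood at -0.35, -1.35, -0.20, -0.46 and -0.95 in Control and at -2.97, -1.93, -2.27, -2.36 and -1.42 in NMBA rats. The lowest Control rat was just above the highest NMBA rat (-1.53 ± 0.37, 2.89-fold lower, adjusted p = 0.0325, and 0.0599 with slide as a block). Cyp2a3, an enzyme that activates nitrosamines in the rat, stood at 0.12 ± 0.39, and Cyp2e1 was above background on 2 of 25 arrays and was not tested. Of 37 oxidant response, glutathione and metallothionein genes 0 passed (8 at an unadjusted p under 0.05, limma). Nqo1 stood at 0.06 ± 0.14 and the metallothionein Mt2A at 0.53 ± 0.16 (adjusted p = 0.108).

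Gip, which encodes an incretin hormone of the small intestine, had the largest difference of all genes tested. It stood at -8.21, -7.47, -8.24, -6.79 and -6.70 in Control rats and at -2.55, -1.91, -1.47, -1.95 and -1.66 in NMBA rats. It was above background on 2 Control arrays and all 5 NMBA arrays, and no rat of 1 group came near the other (5.57 ± 0.34, 47.6-fold, adjusted p = 3.64e-10). With normexp background correction the difference was 3.54. Its receptor Gipr stood at -0.004 ± 0.33 and its groups overlapped, and none of the other 8 gut hormone genes and receptors measured passed. Krt82, a hair keratin, was above background on no Control array and all 5 NMBA arrays, at -8.46, -7.85, -8.49, -7.66 and -7.96 against -5.04, -4.54, -4.09, -5.0 and -3.54. It was at least 10-fold higher in background-subtracted signal (3.64 ± 0.36, adjusted p = 2.92e-06), while the other 13 hair and nail keratins did not pass. With normexp correction the difference was 1.33 in log2, which is below that bound.

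Genes with smaller rises but very tight groups were chosen after their values were seen. Inpp5d, a lipid phosphatase of blood cells, stood at -1.94, -2.23, -1.89, -2.08 and -1.97 in Control and at -0.68, -0.80, -0.31, -0.58 and -0.68 in NMBA rats. Each group was tight and the groups lay over 1 unit apart (1.41 ± 0.14, 2.66-fold, adjusted p = 4.58e-06). The 2 probes of Inpp5d differed in size, from 0.96 to 1.41. Adm2, a peptide hormone gene, rose by 1.40 ± 0.16 (adjusted p = 2.01e-05), and Wfdc3 by 1.14 ± 0.13 (adjusted p = 2.01e-05). Asns, the asparagine synthetase induced by amino acid shortage, rose by 0.92 ± 0.18 (adjusted p = 0.00664). The transport ATPase gene Atp13a5 was among the largest rises, 6.82-fold (2.77 ± 0.29, adjusted p = 4.78e-06), though it was above background on 2 Control arrays only and stood at 1.41 with normexp correction. So were Gpr15, a homing receptor of lymphocytes (at least 5.89-fold, 2.67 ± 0.56), and Sucnr1, the succinate receptor, whose groups overlapped (2.37 ± 0.52) and which was above background on 1 Control and 2 NMBA arrays. Asns (adjusted p = 0.0781), Gpr15 (adjusted p = 0.0599) and Sucnr1 (adjusted p = 0.135) did not pass with slide as a block. With normexp Gpr15 stood at 1.08 and Sucnr1 at 0.83.

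Among the 30 genes that fell, Zbtb16 and Fkbp5 are both induced by glucocorticoids. Zbtb16, a zinc finger repressor, stood at -2.23, -3.00, -2.70, -1.84 and -2.31 in Control and at -4.49, -4.81, -4.30, -4.89 and -5.26 in NMBA rats. The groups were more than 1 unit apart (-2.33 ± 0.42, 5.04-fold lower, adjusted p = 0.00448). Fkbp5, a co-chaperone of the glucocorticoid receptor, stood at 1.43, 0.72, 0.43, 1.24 and 0.77 in Control and at 0.15, -0.14, -1.13, -0.50 and -1.69 in NMBA rats. These groups did not overlap either (-1.58 ± 0.36, 2.99-fold lower, adjusted p = 0.0209), and with slide as a block Fkbp5 did not pass (adjusted p = 0.234). These were 2 of 17 glucocorticoid-induced genes (0.243% of all genes fell), whose median was -0.33. Tsc22d3, another gene of the list, stood at -0.33 ± 0.25 and did not pass, with NMBA rat 1 above every Control rat, rat 2 among them and rats 3 to 5 below.

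The glutamate receptor subunits Grik2 and Gria2 were above background on no NMBA array. Grik2 stood at -6.20, -6.65, -5.38, -6.06 and -5.80 in Control, all above background, and at -8.34, -7.74, -7.74, -8.29 and -7.79 in NMBA rats. It was at least 2.33-fold lower (-1.96 ± 0.39, adjusted p = 0.00918). Gria2, above background on 3 Control arrays, was at least 2.06-fold lower (-1.81 ± 0.42, adjusted p = 0.0253), and with slide as a block did not pass (adjusted p = 0.193). With normexp Grik2 stood at -0.68 and Gria2 at -0.61. The median of the 18 nerve, glia and glutamate receptor genes was -0.68, and 0.02 when genes of any brightness were included.

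Other falls were spread over many functions. Wnt5a, a ligand of non-canonical Wnt signalling, stood at -4.57, -4.56, -3.17, -4.62 and -3.85 in Control and at -5.71, -5.32, -5.53, -5.97 and -5.88 in NMBA rats. The groups did not overlap (-1.53 ± 0.39, 2.88-fold lower, adjusted p = 0.0423, and 0.152 with slide as a block). F3, the tissue factor that starts coagulation, fell 1.78-fold (-0.83 ± 0.15), the intermediate filament gene Nes 2.09-fold (-1.07 ± 0.20) and the zinc transporter gene Slc39a2 2.45-fold (-1.29 ± 0.24). Pik3r1, a regulatory subunit of phosphoinositide kinase, fell 1.93-fold (-0.95 ± 0.18), the aminopeptidase gene Enpep 2.15-fold (-1.11 ± 0.26), the semaphorin gene Sema3d 2.15-fold (-1.10 ± 0.21) and Bbox1, of carnitine synthesis, 2.19-fold (-1.13 ± 0.27). Phactr3, a regulator of phosphatase and actin, was above background on all Control arrays and 1 NMBA array (-2.17 ± 0.54, 4.49-fold lower, and -1.16 with normexp correction). Fstl4 (-1.41 ± 0.33), Klhl4 (-1.41 ± 0.35) and Igsf11 (-1.11 ± 0.27) also fell. Pkd2l2 (at least 2.45-fold), Mlph, of melanosome transport (at least 1.9-fold), and Trmt9b (at least 1.53-fold) were above background on no NMBA array, with normexp values of -0.58, -0.37 and -0.33 in that order. With slide as a block Pik3r1, Enpep, Sema3d, Bbox1, Phactr3, Fstl4, Klhl4, Igsf11, Mlph, Trmt9b and Upk1b did not pass. Nor did Fstl4 and Klhl4 with array row as a block, or Bbox1, Klhl4, Mlph and Trmt9b with normexp background correction.

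Lists of connective tissue and vessels leaned the other way from the immune lists without a gene that passed. All 17 collagen and fibroblast genes measured were below 0, with a median of -0.71, and 0 of them passed (6 at an unadjusted p under 0.05, limma). Their median deviation from the Control mean was -0.31, -0.42, -0.20, -0.52 and -1.93 in NMBA rats 1 to 5, so NMBA rat 5 lay far from the others, and it was -0.37 on slide 3, which does not hold that rat. Col3a1, of interstitial collagen, stood at -0.45 ± 0.23 and the matrix protein gene Sparc at -0.13 ± 0.24. Endothelial genes had a median of -0.29 over 13 and adipocyte genes -0.63 over 8, and muscle genes -0.03 over 22, with 0 past the test in each (0, 2 and 0 at an unadjusted p under 0.05, limma). NMBA rat 5 was also far from the others in the endothelial list, whose median deviations were -0.20, -0.11, -0.03, -0.11 and -0.95 in NMBA rats 1 to 5. On slide 3 the endothelial median was -0.08 and the adipocyte median -0.39. The part that the amount of connective tissue in a sample has in other differences was not tested.

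On slide 3 alone, 4 NMBA rats (1 to 4) were set against 4 Control rats (2 to 5). There 31 of 12343 genes passed (0.251%), 20 higher and 11 lower, and 27 of them are among the 191. Higher by the most were Gip (5.33), Cxcl10 (4.20), Cxcl9 (3.47), Krt82 (3.32) and Ubd (3.13), and lower by the most were Zbtb16 (-2.16), Grik2 (-2.06), Fstl4 (-1.63), Slc39a2 (-1.37) and Lgi2 (-1.33). Without 1 rat the count moved widely: leaving out Control rats 2, 3, 4 and 5 in turn gave 133, 13, 10 and 3 genes, and leaving out NMBA rats 1, 2, 3 and 4 gave 15, 5, 5 and 87.

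NMBA rat 5 and Control rat 1 had no part in the slide 3 fit and sat in the opposite array rows. In this pair 29 of the 31 genes had the sign they had on slide 3, as had 59.8% of all genes tested. All 20 genes called higher on slide 3 were higher, with a median difference of 2.14 in the pair and 1.78 on slide 3. Of the 11 called lower, 9 were lower, with medians of -0.80 in the pair and -1.24 on slide 3. The 2 exceptions were Lgi2, at 0.02, and the olfactory receptor gene Or7e171b, at 0.92, whose groups also overlapped over all rats. Lgi2, Or7e171b, Lpl (-0.99 on slide 3, lipoprotein lipase) and Plce1 (-1.05 on slide 3, a phospholipase C) passed on slide 3 and not over all rats. Because the pair is 1 rat of each group on 2 slides, it carries no test of its own.

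**Figure D5:**
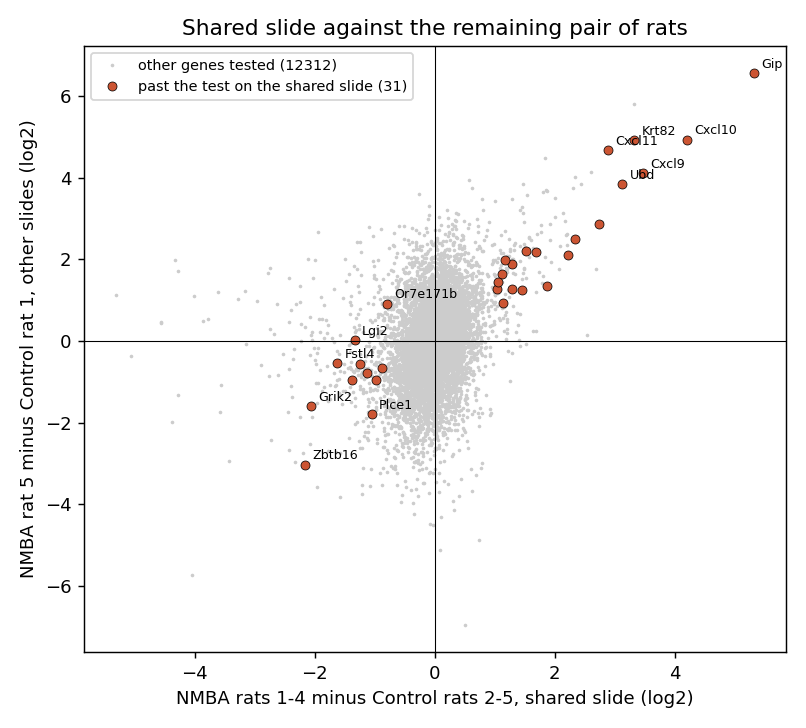
Each point is a gene, with the log2 difference of NMBA rats 1 to 4 from Control rats 2 to 5 on slide 3 (horizontal) and that of NMBA rat 5 from Control rat 1 on other slides (vertical); the 31 genes past the test on slide 3 are orange. Of these, 29 lie in the quadrants of equal sign, and Lgi2 and Or7e171b do not.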

How the data were processed

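Total RNA of 25 rats was amplified, labelled with Cy3 and hybridised to 1-colour Agilent rat arrays, per the labels' protocols. The scanner files hold fluorescence intensity, background-subtracted per the file headers, from Feature Extraction 11.5.1.1 as those headers state (10.7 in the submitters' processing notes). A deposited value table is on a log2 scale, follows those intensities (r rounds to 1 on each array) and has each array's 75th percentile near 0. It served as an alternative.

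Spots flagged as non-uniform or population outliers were dropped, log2 processed signals were averaged per probe, and each array's 75th percentile over spots outside controls was subtracted. Of 30367 probes 18355 were named through their RefSeq accession and 12012 were not; 70 were left out because every spot was dropped on an array. A probe was kept when well above background on at least 5 of 25 arrays. The kept probe of highest mean signal stood for its gene, giving 12343 of 15443 named genes. Of 191 called genes 25 had several kept probes, which differed in sign in 3. Coordinates and sequences are from RefSeq on GRCr8 and serve the printed promoters only. No column was from outside the series (0).

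With limma 3.58.1, a mean per group was fitted over all 25 arrays (R 4.3.3; 20 residual and 3.09 prior degrees of freedom), and to the 8 arrays of slide 3 (6 and 3.01). A fold is "at least" where 1 group was above background on no array, with that group's signal raised to the lowest spot well above background on each array. This bound is for the background-subtracted signal only. The alternatives were other scalings, normexp background correction (offset 50, on the median signal because the mean signal is not in the files), the deposited values, no filter, a filter on all 10 arrays, the mean over probes, only the 10 arrays, slide and array row as blocks, array weights, rat number as a block, and leaving out each rat. In simulated data with 12343 genes, 62% of changes of 1 log2 unit and 95% of 2 units were recovered for NMBA against Control, and 35% and 85% on slide 3. The simulated noise was independent between genes and arrays, without slide or array row effects, so these rates do not cover such effects.

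Genes are named by rule: the 20 largest rises and falls, the 10 largest of each above background on all 10 arrays, called members of 38 lists (909 genes, 707 tested), up to 4 bright uncalled members of a described list, the 5 largest of each on slide 3, and a set of expected genes. Provisional symbols are not named, and 2 genes that the rule names are not reported here. Members and lists were chosen with earlier results of these data known.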

Additional observations from a re-analysis of the deposited data

Results flagged for a closer look

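Of 121 named genes in 2 groups of 5 rats, 21 of 242 groups held a rat whose gap to the nearest other rat exceeded Dixon's 95% critical value (0.71 of the group's range), where chance gives about 1 in 20. Values are log2 relative to the 75th percentile.

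NMBA rat 4 was far below the other NMBA rats in the lymphocyte genes Gzmk (-5.70), Gzmm (-3.47), Il2rb (-2.91) and Cd6 (-2.15), of which the other 4 rats were at or above -3.92, -1.94, -1.68 and -1.63. NMBA rat 5 was high in Gata3 (-3.49) and low in Col3a1 (3.06), and NMBA rat 1 was high in Pik3r1 (-1.37) and low in Pkd2l2 (-8.44).

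Control rat 1, the Control rat off slide 3, was the lowest of its group in Cxcl11 (-6.02), Sprr3 (4.35), Ifi27 (3.33), Krt13 (4.42), Sparc (3.61) and Or7e171b (-8.13). Control rat 2 was lowest in Ccl22 (-5.70), Ccnd1 (1.52), Upk1b (-0.25) and Phactr3 (-5.67). Control rat 3 was highest in Itgad (-5.28), Control rat 4 in Tsc22d3 (2.42) and Control rat 5 in Irgm (-3.01).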

How the results depend on the processing

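None of the 89 named genes that passed turned its sign under the alternatives run, and 80 of the 191 genes passed whichever rat was left out. The number of genes changed, 191, became 95 with only the 10 arrays in the fit, 62 with slide as a fixed block, 8 with slide and array row together, 2105 with array weights and 31 on slide 3 alone, and ran from 96 (without NMBA rat 5) to 297 (without NMBA rat 4). On slide 3 the 31 genes became 62 when the spread was taken from all 25 arrays, the same fit as the slide block. The count on slide 3 ran from 3 (without Control rat 5) to 133 (without Control rat 2). Rats of the same number in the 2 groups did not deviate together (correlations from -0.37 to -0.02, none best with its own number). With 5 rats per group these correlations cannot exclude a pairing, and the labels name none. A replicate block on the number left 26 genes, 25 of them among the 191, and on slide 3, where 3 numbers are shared, limma called 0 genes, with 1012 at an unadjusted p under 0.05.

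Among the 121 named genes signs turned in 12, none of which passed; other called genes were not followed singly. Gipr stood at 0.025 with the array median, 0.041 with quantile scaling, 0.096 with normexp, 0.0099 in the deposited values, 0.33 with slide as a block and on slide 3 alone, and 0.44 with slide and row. Quantile scaling gave -0.0030 for Krt13 and -0.062 for Nqo1, the mean over probes gave 0.025 for Mki67, array weights gave 0.014 for Tsc22d3, and array row as a block gave -0.028 for Cyp2a3 and 0.21 for Mki67. Slide and row together gave -0.18 for Ifi27, -0.33 for Jund, -0.32 for Krt13, -0.11 for Nqo1, -0.29 for Perp and -0.024 for Sprr3. Without single rats Cd4 ran from -0.081 to 0.34, Cyp2a3 from -0.13 to 0.31, Epcam from -0.26 to 0.020, Gipr from -0.26 to 0.32 and Mki67 from -0.26 to 0.11. The causes were not tested. Of list medians recomputed, 918 moved by less than the spread between rats and 32 by more. Genes near background are limited most: with normexp Gip stood at 3.54 and Krt82 at 1.33.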

Other observations

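Probes without a gene symbol were not part of the comparison above. Of 8538 such probes above background on at least 5 arrays, 44 passed the same test, 36 higher and 8 lower in NMBA rats (limma, adjusted over these probes). The 2 largest rises were at the Agilent probes A_64_P002581 (3.50 ± 0.55, adjusted p = 0.00243) and A_64_P143542 (2.76 ± 0.20, adjusted p = 6.47e-09). The 2 largest falls were at A_64_P047979 (-1.94 ± 0.36, adjusted p = 0.00802) and A_64_P098996 (-1.21 ± 0.27, adjusted p = 0.0409).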
